A study of Mus musculus with 11 samples.

Results

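The 10 genes studied here set the entry of pyruvate into mitochondrial oxidation, and were followed in mouse hearts: the pyruvate dehydrogenase (PDH) kinases Pdk1, Pdk2, Pdk3 and Pdk4, the PDH phosphatases Pdp1 and Pdp2 with the phosphatase regulator Pdpr, the PDH subunit Pdha1, and the mitochondrial pyruvate carrier genes Mpc1 and Mpc2. They were chosen by name, as the 10 of 55487 identifiers in the count table that carry these symbols. All 10 passed the filter on low counts and were among the 23779 genes tested. The hearts came from female C57BL/6NTac mice, an inbred strain, which were 8 weeks old at the start of 24 weeks of feeding. The 4 control-diet libraries came from mice on a diet with 10.4% of its energy from fat and 69.1% from carbohydrate. Mice of the 4 obese libraries ate an obesogenic diet, made of a feed with 60.3% of its energy from fat and 21.3% from carbohydrate plus sweetened condensed milk, and were gavaged with 10% PEG400 as vehicle. The 3 treated libraries came from mice on the same obesogenic diet that were given 5 mg/kg dasatinib with 50 mg/kg quercetin in that vehicle, on 3 days in a row each week from week 16. This pair of compounds is a senolytic cocktail, given to deplete senescent cells, and the question the labels name is how such depletion acts on obese hearts. No genotype other than the strain is named, and all groups were female. The labels do not say that the control-diet mice were gavaged, so diet and gavage cannot be told apart. They also do not say that each library is 1 mouse or which chambers were taken, and the p-values reflect how far libraries differ, which can be partly technical.

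The PDH complex converts pyruvate, the end product of glycolysis, into acetyl-CoA inside mitochondria, and so decides whether carbohydrate carbon enters the citric acid cycle. PDH kinases phosphorylate the E1 alpha subunit, encoded by Pdha1, and switch the complex off, while PDH phosphatases remove the phosphate and switch it on. Pyruvate reaches the complex through a carrier in the inner mitochondrial membrane that is built from the products of Mpc1 and Mpc2. In heart muscle, Pdk4 is known as the kinase whose transcription follows fatty acid supply, fasting, glucocorticoids and insulin, and Pdk2 as an abundant constitutive kinase.

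Promoter sequence is shown for Pdk4, the kinase with the largest diet difference, for Pdk2, the other abundant kinase, and for Pdk3, the kinase without a called difference. The bases run 5′ to 3′ from 250 bases before the start annotated by RefSeq in GRCm38.p6. They stop where the GENCODE gene body begins for Pdk4 and Pdk3, and just before the RefSeq start for Pdk2. Capitals mark matches to any of 6 motifs searched on both strands.
Pdk4, chr6:5496310-5496528, minus strand: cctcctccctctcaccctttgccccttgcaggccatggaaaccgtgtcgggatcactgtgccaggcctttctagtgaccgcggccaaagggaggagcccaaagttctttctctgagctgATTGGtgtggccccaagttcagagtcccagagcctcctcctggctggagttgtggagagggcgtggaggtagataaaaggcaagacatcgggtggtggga
Pdk2, chr11:95041372-95041621, minus strand: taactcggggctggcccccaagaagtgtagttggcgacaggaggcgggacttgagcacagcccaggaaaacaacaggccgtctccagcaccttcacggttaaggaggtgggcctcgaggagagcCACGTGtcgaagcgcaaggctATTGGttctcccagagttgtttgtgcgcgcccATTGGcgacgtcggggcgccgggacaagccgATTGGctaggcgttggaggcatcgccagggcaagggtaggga
Pdk3, chrX:93832202-93832400, minus strand: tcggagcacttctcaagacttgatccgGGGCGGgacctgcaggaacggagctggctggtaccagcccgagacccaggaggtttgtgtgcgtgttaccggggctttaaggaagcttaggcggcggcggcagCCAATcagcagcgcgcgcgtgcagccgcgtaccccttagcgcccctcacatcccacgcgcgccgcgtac
The motifs were the nuclear receptor half-site AGGTCA, the FOXO motif TGTTTAC, the E-box CACGTG, the glucocorticoid receptor half-site TGTTCT, the CCAAT box CCAAT and the GC box GGGCGG. No 2 of the marked matches overlap. The Pdk4 window held 1 match, a CCAAT box read on the other strand as ATTGG at position -131 from the start. The Pdk2 window held 4, an E-box at -126 and CCAAT boxes read as ATTGG at -105, -73 and -42. The Pdk3 window held a GC box at -223 and a CCAAT box at -120. Of the 10 genes, 9 had such a window, and Pdp1 had none in the table. The 9 genes had 12 windows, since some have several starts. A CCAAT box was found in 6 of the 12 windows and a GC box in 7, and in 33.8% and 32.7% of all 32851 windows of this length. The E-box was found in 3 of the 12, those of Pdk2, Pdp2 and Pdpr, and in 6.0% of all windows. The nuclear receptor half-site was found in 1 window, of Mpc1 (14.0% of all windows), the glucocorticoid half-site in 1, of Pdk1 (16.1%), and the FOXO motif in 0 (3.2%). A match describes these letters and is not a binding site.

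Library totals ran from 73.1 to 103.3 M counts on the control diet, 52.7 to 67.2 M in obese hearts and 64.2 to 72.3 M in treated hearts, so depth differed with the diet. Transcripts of the mitochondrial chromosome took 28.2 to 32.3% of control counts, 21.4 to 24.5% of obese counts and 17.8 to 22.4% of treated counts. Counts on sense-intronic and TEC (unverified) gene classes are called the intronic share below, and are not reads counted in introns of other genes. They took 0.286 to 0.59% on the control diet, 0.663 to 0.811% in obese hearts and 0.509 to 0.671% in treated hearts. All 7 ventricular myocyte markers were detected and 3 of them were called lower in obese hearts. Their summed levels were 27357.3 to 38481.6, 22033.9 to 33147.2 and 28045.6 to 33006.4 CPM (the count per M of scaled library size) in the 3 groups. These markers did not all move together. Myl3 and Tnnt2 did not overlap between control and obese hearts, while Myl2, Myh6, Tnni3, Actc1 and Ryr2 did. Actc1 ran from 2067.0 to 4751.5 CPM in control and from 3071.6 to 4996.0 CPM in obese hearts. The summed level of 6 atrial myocyte markers was 17.2 to 199.1 CPM in 8 libraries and 2115.9 in obese 3, 2711.9 in treated 2 and 5633.2 in treated 3. Summed endothelial markers were 735.9 to 865.7, 547.0 to 652.9 and 548.8 to 587.5 CPM in control, obese and treated hearts, and 2 of the 5 were called lower in obese hearts. Cdh5 ran from 230.0 to 273.5 CPM in control and from 139.8 to 184.2 CPM in obese hearts. Kdr, Pecam1, Tie1 and Emcn overlapped between these groups. In treated 3, Pecam1 (241.8 CPM) and Emcn (43.9 CPM) were above every control library. Smooth muscle and pericyte markers summed to 867.7 to 1068.4 CPM in control and 555.2 to 684.5 CPM in obese hearts, and 1 of 5 was called lower. Rgs5 made up most of these sums, at 753.1 to 930.8 CPM in control and 436.3 to 593.4 CPM in obese hearts. Pdgfrb ran from 76.9 to 82.7 and from 60.3 to 75.5 CPM. The smooth muscle genes overlapped between these groups: Myh11 (21.6 to 53.2 and 26.6 to 58.3), Tagln (2.56 to 5.48 and 3.03 to 8.63) and Cnn1 (0.673 to 1.94 and 1.12 to 2.72). Of the 5 adipocyte markers tested, 3 were called higher and 1 lower in obese hearts. Summed adipocyte markers ran from 9.59 to 16.3 CPM in control and from 5.43 to 9.51 CPM in obese hearts. Cidea ran from 9.48 to 16.1 and from 4.44 to 6.1 CPM. Adipoq, Plin1 and Lep reached at most 1.29, 2.58 and 0.895 CPM in obese libraries, levels near the floor. Depth, mitochondrial and intronic shares and some of these markers therefore moved with the diet. Atrial marker RNA was instead high only in obese 3, treated 2 and treated 3. Some models held the intronic share or an atrial marker score (the mean log2 CPM of the 6 markers). Other fits left out mitochondrial-chromosome genes, or obese 3, treated 2 and treated 3 together. Beyond these fits, the part of depth, shares and markers in the differences below was not tested. In bulk tissue, fewer cells of a type and less RNA per cell cannot be told apart.

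The first comparison asked how the obesogenic diet with vehicle differed from the control diet. Of the 10 genes, 7 fell and 0 rose, with adjusted p under 0.05 in edgeR's quasi-likelihood test with Benjamini-Hochberg adjustment over all genes. Of all genes tested, 30.1% were called, 15.7% lower and 14.4% higher. The genes that fell were 3 kinases (Pdk4, Pdk2, Pdk1), the phosphatase Pdp1, the regulator Pdpr, Pdha1 and the carrier subunit Mpc1. In 8 of the 10 genes the 4 obese libraries lay apart from the 4 control libraries, against 28.5% of all genes. The median log2 fold change was -0.73 over the 10 genes and 0.107 over all genes tested.

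**Figure D1:**
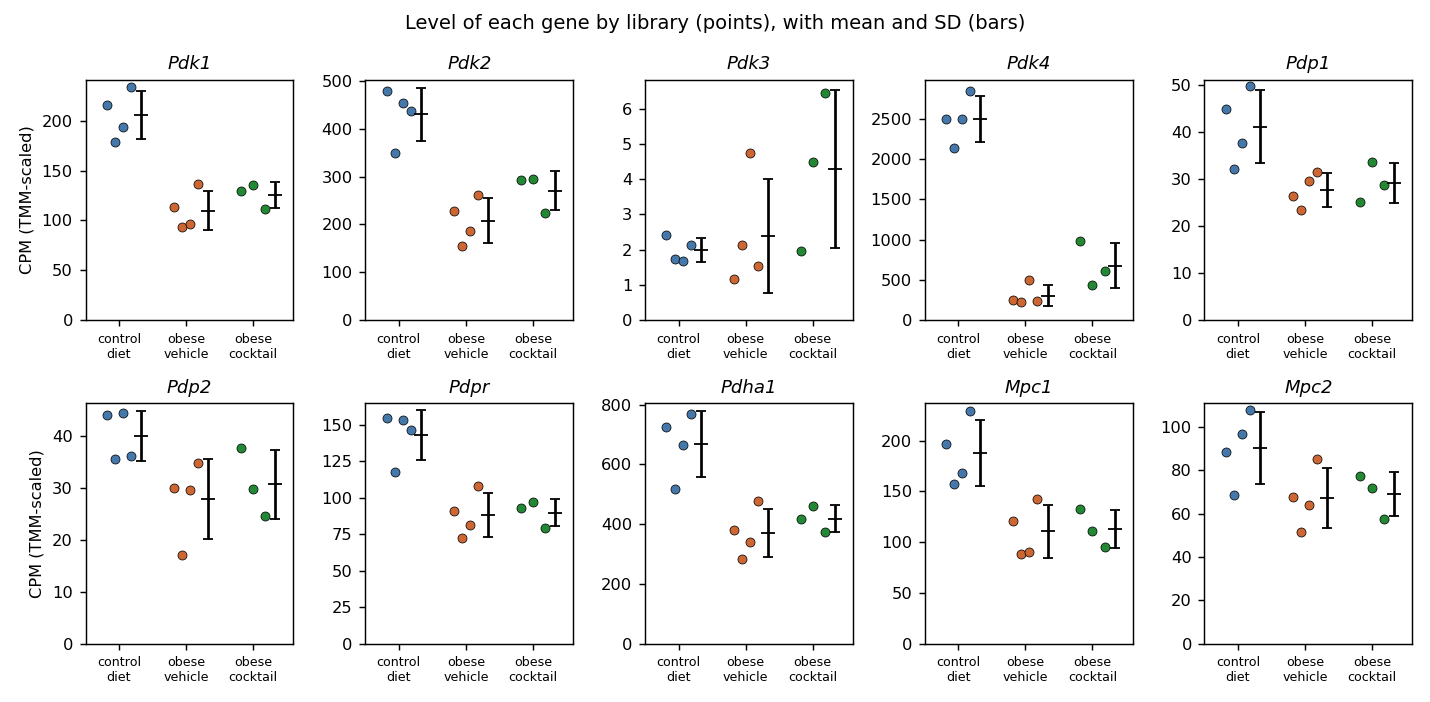
Level of each of the 10 genes in TMM-scaled CPM (vertical axis, from 0) in every library, as points, with the mean and SD of each group as bars. In Pdk4 the control libraries lie between 2141.4 and 2851.0 CPM and the obese libraries between 224.4 and 493.7 CPM, while Pdk3 is high in 3 libraries of the obese and treated groups.

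Pdk4, the kinase known to be induced by fatty acids and fasting, showed the largest difference of the 10. It stood at 2497.9, 2141.4, 2495.4 and 2851.0 CPM in control libraries 1 to 4, and at 251.7, 224.4, 493.7 and 230.4 CPM in obese libraries 1 to 4. The groups did not overlap, and obese 3 stood above the other obese libraries. Its mean went from 2496.4 ± 289.7 (SD, n = 4) to 300.0 ± 129.6 CPM (SD, n = 4), an 8.32-fold lower level. The log2 fold change was -3.06 (SE 0.30, 95% interval -3.71 to -2.40, adjusted p = 7.97e-05). Counted from the lowest log2 fold change, Pdk4 ranked 19 of 23779 genes. In GRCm38 the gene lies on chromosome 6 from 5483351 to 5496309 on the minus strand.

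Pdk2, the constitutive kinase, stood at 479.5, 350.7, 454.1 and 438.0 CPM in control libraries 1 to 4, and at 228.7, 155.9, 186.1 and 261.9 CPM in obese libraries 1 to 4. Every obese library lay below every control library. Its level was 2.07-fold lower in obese hearts (log2 fold change -1.05, SE 0.17, adjusted p = 0.00101). The gene lies on chromosome 11 from 95026258 to 95041354, minus strand. Pdk1, known as a kinase gene that responds to hypoxia, stood at 216.3, 179.1, 194.1 and 234.1 CPM in control hearts and at 113.7, 93.6, 96.0 and 136.2 CPM in obese ones, again without overlap. Its level was 1.87-fold lower (log2 fold change -0.91, SE 0.14, adjusted p = 0.000757). It lies on chromosome 2 from 71873224 to 71903858, plus strand.

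Pdk3, the kinase with the fewest counts, was the one kinase that was not called. Its control libraries held 2.41, 1.72, 1.68 and 2.14 CPM (120 to 170 counts each), and its obese libraries 1.15, 2.14, 4.73 and 1.52 CPM (67 to 296 counts). The groups overlapped, with obese 3 above every control library and obese 1 and 4 below all of them. The log2 fold change was 0.26 (SE 0.43, 95% interval -0.68 to 1.2, adjusted p = 0.671), and without obese 3 it was -0.31. The gene lies on chromosome X from 93764607 to 93832201, minus strand.

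On the phosphatase side, 2 of 3 genes were called lower. Pdpr, which encodes a regulatory subunit that restrains PDH phosphatase, stood at 154.5, 117.7, 153.4 and 146.9 CPM in control libraries and at 91.2, 72.8, 81.3 and 108.1 CPM in obese libraries. All obese libraries were below all control libraries, and the level fell 1.62-fold (log2 fold change -0.70, SE 0.14, adjusted p = 0.00286). Pdp1, the calcium-stimulated phosphatase catalytic subunit, averaged 41.21 ± 7.78 CPM in control hearts against 27.74 ± 3.54 CPM in obese ones (n = 4 each). Its libraries ran from 32.2 to 49.9 CPM in control and from 23.4 to 31.5 CPM in obese hearts, and did not overlap. It was called lower (log2 fold change -0.57, SE 0.15, adjusted p = 0.0113), but not when libraries were scaled by total counts alone (-0.13, adjusted p = 0.391). Pdp2, the other catalytic subunit, ran from 35.5 to 44.4 CPM in control and from 17.0 to 34.8 CPM in obese hearts. The Pdp2 groups did not overlap either, and its difference missed the threshold (log2 fold change -0.52, SE 0.19, adjusted p = 0.0594). It passed with DESeq2 (adjusted p = 0.0302), and without control 2, obese 4 or treated 1 (0.0471, 0.0279 and 0.0474). Pdp1 lies on chromosome 4 from 11958184 to 11966452 on the minus strand. On the plus strand of chromosome 8, Pdp2 spans 104591451 to 104599026 and Pdpr 111094630 to 111137074.

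Pdha1, the subunit on which the kinases and phosphatases act, stood at 726.8, 517.4, 663.9 and 768.8 CPM in control libraries 1 to 4 and at 381.3, 283.0, 341.4 and 476.2 CPM in obese libraries 1 to 4. The groups did not overlap, and the mean went from 669.2 ± 110.0 to 370.5 ± 81.2 CPM (SD, n = 4 each). The level was 1.81-fold lower (log2 fold change -0.85, SE 0.17, adjusted p = 0.00319). Pdha1 lies on chromosome X from 160122209 to 160138413, minus strand, and 603 of its exonic bases overlap Map3k15 on the other strand, whose total count was 0.524% of that of Pdha1.

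Mpc1, a carrier subunit, stood at 196.8, 157.6, 167.7 and 229.3 CPM in control libraries and at 120.5, 88.5, 90.7 and 142.8 CPM in obese libraries. The highest obese library remained below the lowest control library. The level was 1.70-fold lower (log2 fold change -0.76, SE 0.18, adjusted p = 0.00661). Exons of 4930506C21Rik overlap Mpc1 over 480 bases on the other strand, with 4.18% of its count, and the processed pseudogene Mpc1-ps held 1161 counts against 108210 for Mpc1. Use of strand is not stated for these counts, so reads of overlapping genes cannot be told apart. Mpc2, the partner subunit, ran from 68.4 to 107.9 CPM in control and from 51.6 to 85.2 CPM in obese hearts, and these groups overlapped. Its difference missed the threshold (log2 fold change -0.43, SE 0.17, adjusted p = 0.0679), and passed with DESeq2 (0.0404) and without control 2 (0.0153) or obese 4 (0.021). Mpc1 lies on chromosome 17 from 8282904 to 8297661 and Mpc2 on chromosome 1 from 165460637 to 165481214, both on the plus strand.

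Within groups, the same libraries tended to be low or high for most of the genes. Control 2 was the lowest control library for 9 of the 10 genes, and obese 2 the lowest obese library for 9. Obese 4 was the highest obese library for 8 of the 10. Among control libraries, control 2 had the highest intronic share, 0.5903%, and among obese libraries obese 4 had the lowest, 0.6631%. Obese 2, however, had 0.7064%, below obese 1 (0.7463%) and obese 3 (0.8113%). Obese 3, with the highest share, was the lowest obese library for 0 of the 10 genes and the highest for 2. With the intronic share added to the model, 1 of the 10 genes was called, Pdk4 (log2 fold change -3.52, adjusted p = 0.038), and over all genes 35 were higher and 86 lower. This share did not overlap between control and obese libraries, so the model had little room to separate it from diet. When any 1 library was left out, the 7 genes that fell remained called in every fit.

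**Figure D2:**
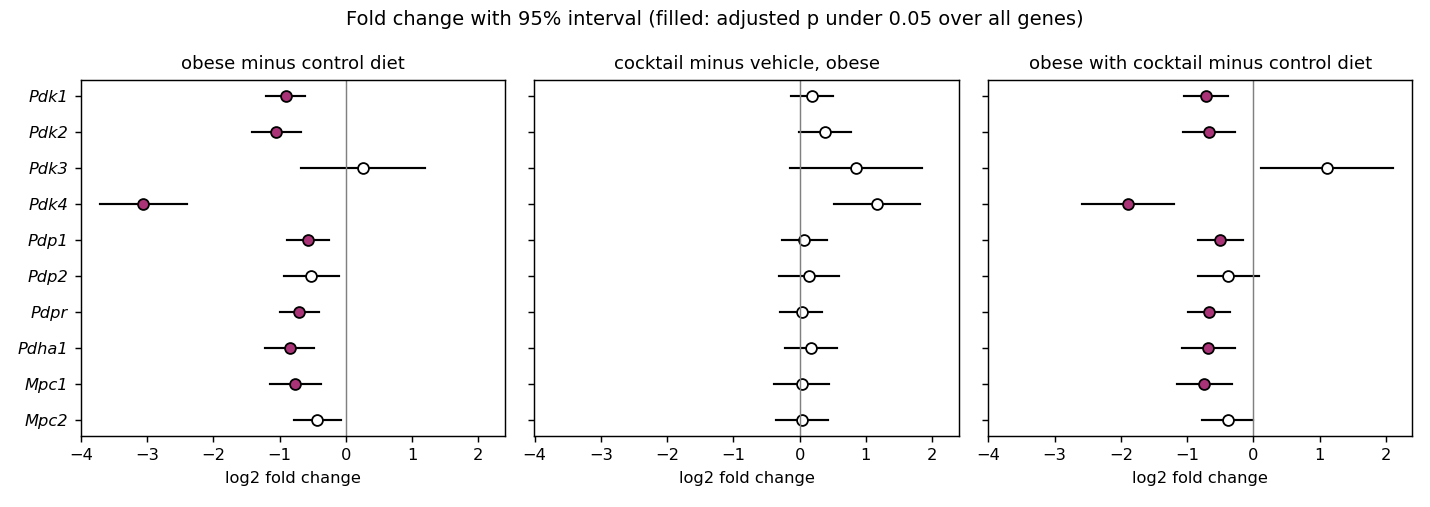
Log2 fold change (horizontal axis) of each of the 10 genes with its 95% interval in the 3 comparisons, with filled points where adjusted p was under 0.05 over all genes. For obese against control, 7 points are filled and lie below 0, and Pdk4 stands at -3.06; for treated against obese, none is filled.

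Compared per length, as CPM per kilobase of merged exons, Pdk4 was the highest of the 10 genes on the control diet and lost that place in obese hearts. Control levels were 711.0 ± 82.5 CPM/kb for Pdk4, 179.2 ± 29.5 for Pdha1, 136.1 ± 17.7 for Pdk2 and 90.2 ± 15.5 for Mpc1 (SD, n = 4). Pdk4 did not overlap with Pdha1 there, while Pdha1 and Pdk2 overlapped. Pdpr (28.5 CPM/kb) and Pdk1 (26.5) overlapped, and Mpc2 (12.3), Pdp1 (9.14) and Pdp2 (7.01) followed, each overlapping with the next. Pdk3 was the lowest, with 0.776 ± 0.136 CPM/kb. In obese hearts the order began with Pdha1 (99.2 ± 21.8 CPM/kb), Pdk4 (85.5 ± 36.9), Pdk2 (65.8 ± 14.7) and Mpc1 (53.1 ± 12.5), and each of these overlapped with its neighbour. Treated hearts again had Pdk4 first, at 192.1 ± 79.2 CPM/kb (n = 3), overlapping with Pdha1 at 111.9 ± 12.

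The make-up of the kinase pool, summed per length, differed accordingly. Pdk4 made up 81.3 ± 1.30% of the 4 kinases on the control diet (79.8 to 82.7%), 50.2 ± 11.4% in obese hearts (39.4 to 65.8%) and 63.5 ± 9.96% in treated hearts (52.4 to 71.6%). The obese and treated ranges overlapped, and both lay below the control range. Pdk2 supplied 15.6 ± 1.32%, 40.5 ± 9.65% and 30.2 ± 8.23% in the same order. Pdk1 gave 3.03 ± 0.13%, 8.76 ± 2.06% and 5.72 ± 1.58%, and Pdk3 stayed under 1% in every library. The summed kinase level was 874.4 ± 97.7, 166.3 ± 36.1 and 295.6 ± 82.0 CPM/kb, and without Pdk4 it was 163.4 ± 19.9, 80.9 ± 16.9 and 103.5 ± 13.6 CPM/kb. The 2 phosphatases summed to 16.2 ± 1.96, 11 ± 2.08 and 11.9 ± 1.05 CPM/kb. Kinase transcript per Pdha1 transcript, again per length, was 4.92 ± 0.339 on the control diet, 1.72 ± 0.44 in obese and 2.67 ± 0.787 in treated hearts. Phosphatase per Pdha1 was 0.0907 ± 0.00496, 0.112 ± 0.0114 and 0.106 ± 0.00322. Mpc1 per Mpc2 was 7.40 ± 0.892, 5.82 ± 0.563 and 5.77 ± 0.311. These ratios are descriptions of transcript levels, without a test, and say nothing of protein or of PDH phosphorylation.

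**Figure D3:**
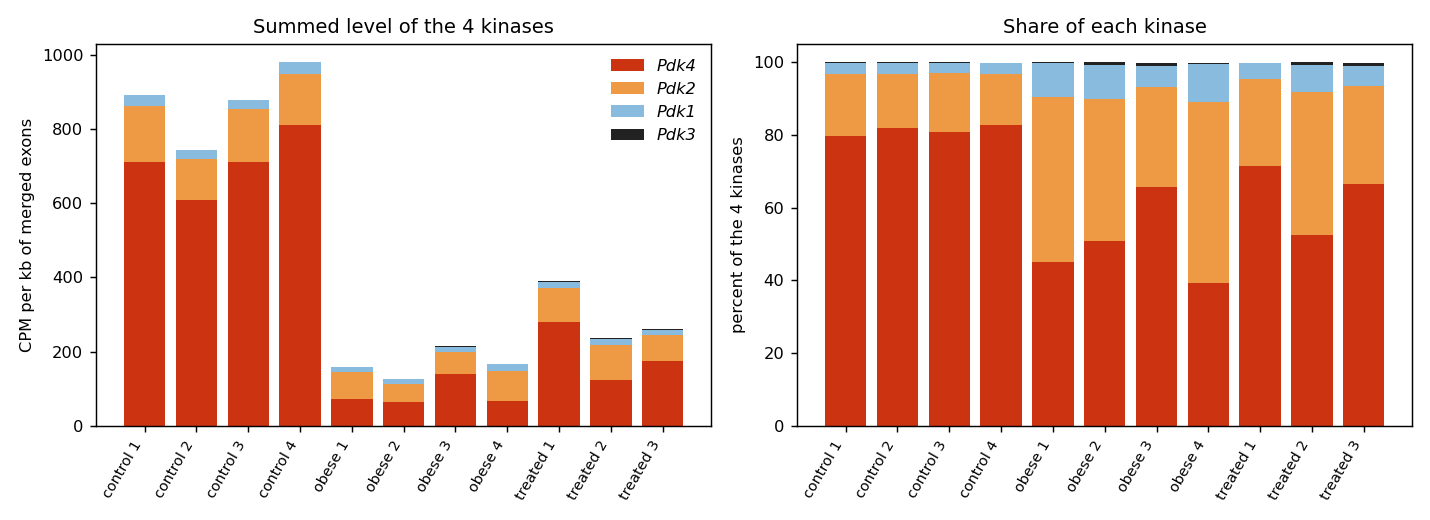
Summed level of the 4 kinases in CPM per kilobase of merged exons (left) and the percent share of each kinase (right), as stacked bars from 0 for each library. Pdk4 fills 79.8 to 82.7% of the control bars and 39.4 to 65.8% of the obese bars.

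The other genes around these 10 were taken from 6 lists with 60 genes tested in all. In obese against control hearts, 32 of them fell, 1 rose and 27 were not called (median log2 fold change -0.47). Of all genes tested, 15.7% were called lower and 14.4% higher, and these shares stand beside each list that follows. All 4 other PDH complex subunits fell: Dld (log2 fold change -0.78), Pdhx (-0.66), Pdhb (-0.58) and Dlat (-0.53), with adjusted p from 0.0049 to 0.028. They encode the E3 subunit, the E3-binding protein, E1 beta and E2. Scaling by total counts ended the calls of Pdhx (adjusted p = 0.13), Pdhb (0.214) and Dlat (0.464). The Dlat call was also lost without control 1, 3 or 4 or obese 1, 2 or 3 (0.0584 to 0.0762) and with upper-quartile scaling (0.0502). Of 15 genes that supply lipoate and thiamine cofactors, 8 fell and 1 rose (median -0.48). Among those that fell were the lipoyl synthase gene Lias (-0.84), the iron-sulfur assembly factor gene Iba57 (-0.94) and the mitochondrial fatty acid synthesis gene Oxsm (-0.91). Of 13 genes for pyruvate formation, transport and other fates, 7 fell and 0 rose (median -0.37). Bsg, which encodes the chaperone of lactate and pyruvate transporters, had a log2 fold change of -1.30, Slc16a1, such a transporter, -0.93, Ldhb, a lactate dehydrogenase subunit, -0.86, and Me1, the cytosolic malic enzyme, -0.96.

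The related branched-chain and 2-oxoglutarate dehydrogenases, which are built like PDH, had 5 of 7 genes lower and 0 higher (median -0.70). Bckdhb (log2 fold change -1.0) and Dbt (-0.88) encode subunits of the branched-chain complex, and Bckdk (-0.66) and Ppm1k (-0.91) its kinase and its phosphatase. Of 7 genes for acetyl-CoA and citrate handling, 5 fell and 0 rose (median -0.64), among them Acss1 (-1.22), Slc25a20 (-1.05) and citrate synthase, Cs (-0.64). The Cs call was lost without control 1 (adjusted p = 0.0505) and with total-count scaling (0.15), and that of Bckdk with total-count scaling (0.0729). Among 14 transcriptional regulators linked to Pdk4, 3 fell and 0 rose (median -0.15), beside 15.7% of all genes called lower: Hif1a (-0.49, adjusted p = 0.00388), Esrrg (-0.52, 0.0132) and Rxra (-0.40, 0.027). Total-count scaling ended all 3 calls (adjusted p 0.476 to 0.867), and the Rxra call was also lost without control 1 or 3 or obese 1, 2 or 3 (0.0533 to 0.0776). Ppara, the nuclear receptor for which Pdk4 is a textbook target, is named here after its values were seen. Control hearts held 45.58 ± 1.68 CPM and obese hearts 41.47 ± 14.1 CPM (-0.14, SE 0.19, adjusted p = 0.618). With the intronic share in the model none of the called genes named from these lists was called, and Pdhx, Dlat, Slc16a1 and Esrrg had log2 fold changes between 0.02 and 0.07.

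The second comparison asked how the cocktail changed these genes within obese hearts. None of the 10 genes was called by edgeR, as 0% of all genes were. At an unadjusted p under 0.05 there was 1 of the 10, Pdk4, against 10.2% of all genes, and limma voom called 0 and DESeq2 called 1, again Pdk4. Over all genes DESeq2 called 52 higher and 80 lower. All 10 log2 fold changes were above 0, with a median of 0.16 against -0.00688 over all genes, and the 10 ranges all overlapped, while 10.1% of all genes had ranges that did not.

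Pdk4 stood at 978.7, 434.1 and 610.3 CPM in treated libraries 1 to 3, beside 224.4 to 493.7 CPM in obese libraries. Treated 1 and 3 were above every obese library, and treated 2 was below obese 3. Its mean was 674.4 ± 277.9 CPM (SD, n = 3), 2.25-fold above the obese mean. The difference did not pass the threshold after adjustment by edgeR (log2 fold change 1.17, SE 0.30, 95% interval 0.52 to 1.82, adjusted p = 0.354). The call depended on the method and on obese 3: DESeq2 gave 1.18 with adjusted p = 0.0235, and edgeR without obese 3 gave 1.52 with adjusted p = 0.0494. Without treated 1, the highest treated library, the log2 fold change was 0.80 (adjusted p = 0.274). Leaving out the 3 libraries rich in atrial marker RNA together, chosen after the data were seen, gave 2.06 (adjusted p = 0.00898), with treated 1 as the lone treated library, whose spread is then assumed to be that of the other groups.

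**Figure D4:**
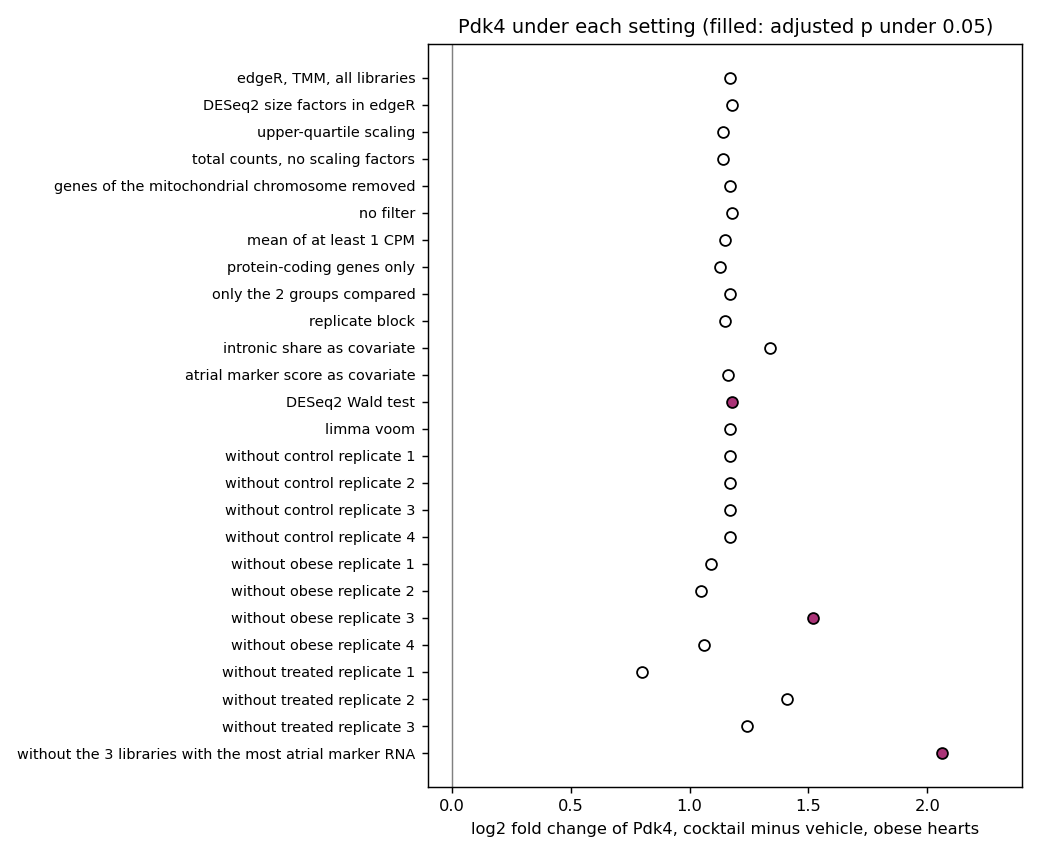
Log2 fold change of Pdk4 in treated against obese hearts (horizontal axis), 1 point for each processing setting and each library left out, filled where adjusted p was under 0.05. All points lie above 0, and the filled ones are those with DESeq2 (1.18), without obese 3 (1.52) and without the 3 libraries rich in atrial markers (2.06).

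Pdk2 stood at 294.0, 294.8 and 224.6 CPM in treated libraries 1 to 3, beside 155.9 to 261.9 CPM in obese hearts (log2 fold change 0.38, SE 0.18, 95% interval -0.01 to 0.77, adjusted p = 0.499). Treated 1 and 2 were above all obese libraries, and treated 3 lay within their range. Pdk1 held 129.3, 135.9 and 111.4 CPM in treated hearts, inside the obese range (0.19, adjusted p = 0.66). Pdha1 was 417.7 ± 44.8 CPM in treated hearts (0.17, 95% interval from -0.22, adjusted p = 0.759). Pdp1, Pdp2, Pdpr, Mpc1 and Mpc2 differed by 0.07, 0.14, 0.03, 0.03 and 0.04 on the log2 scale (adjusted p 0.842 to 0.969). None of the 60 genes on the surrounding lists was called by edgeR either (median 0.12).

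Pdk3 held 1.95, 4.47 and 6.43 CPM in treated libraries 1 to 3 (132, 353 and 528 counts). Its log2 fold change was 0.85 against obese (SE 0.46, adjusted p = 0.544) and 1.11 against control hearts (SE 0.46, adjusted p = 0.116). The high values were those of obese 3, treated 2 and treated 3, the same 3 libraries in which summed atrial markers reached 2115.9, 2711.9 and 5633.2 CPM. In the other 8 libraries Pdk3 ran from 1.15 to 2.41 CPM. Of the 6 atrial markers, 5 were higher in each of these 3 libraries than in any other: Sln was at 127.6, 260.1 and 274.5 CPM in these 3 libraries and at most 12.6 CPM elsewhere, and Myl7 at 351.9, 621.6 and 653.3 CPM and at most 31.8 CPM elsewhere. Bmp10 was the exception, with 401.6 CPM in obese 3 and 1388.8 CPM in treated 3 but 5.42 CPM in treated 2, below the 32.6 CPM of obese 4. These 3 libraries were chosen after the data were seen and hold the 3 highest Pdk3 values. Leaving them out therefore had to lower the obese and treated means, and cannot tell whether atrial RNA accounts for Pdk3. Without the 3 libraries, Pdk3 had a log2 fold change of -0.31 in obese against control hearts. In treated against control hearts it was -0.01, with treated 1 as the lone treated library. With the atrial marker score in the model these values were -0.53 and -0.07. Pdk3 was called higher in treated than control hearts under 4 settings (total-count scaling, only those groups, and without obese 3 or treated 1), with adjusted p from 0.0316 to 0.0481.

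**Figure D5:**
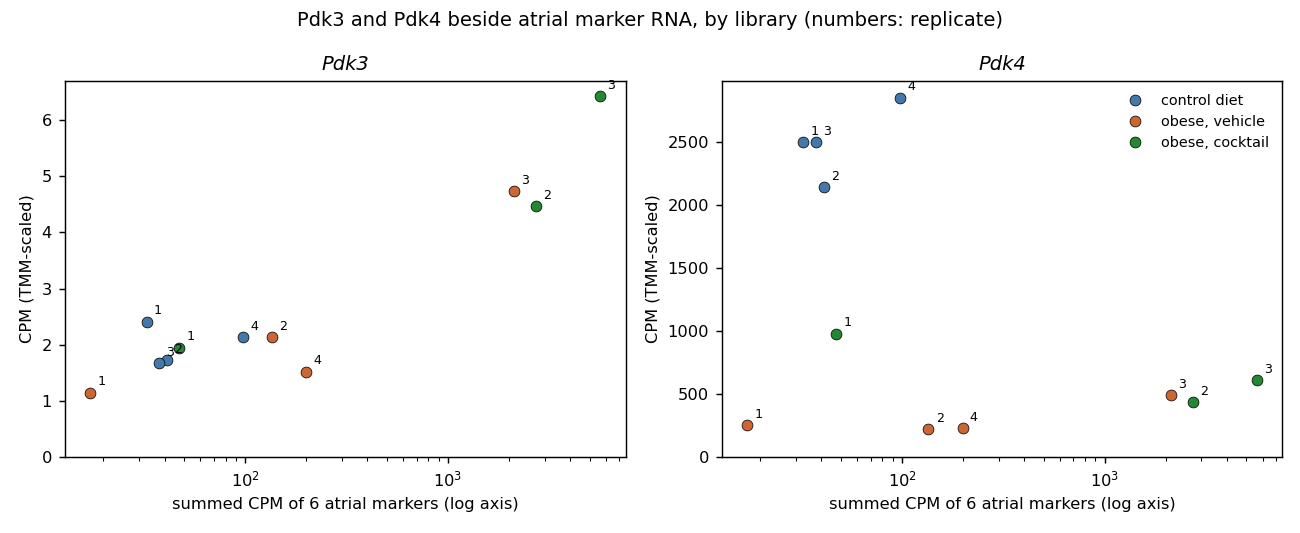
Pdk3 (one panel) and Pdk4 (the other) in TMM-scaled CPM (vertical axis) against the summed CPM of 6 atrial markers on a log axis, 1 point per library with its replicate number. Obese 3, treated 2 and treated 3 lie at the right, at 2115.9 CPM or more, and hold the 3 highest Pdk3 values.

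The third comparison set treated obese hearts beside the control diet. It shares its libraries with the other comparisons, so its values stand here side by side with them. Of the 10 genes, 7 were called lower and 0 higher, against 15.8% of all genes called and 8.39% lower. In 6 of the 10 the groups did not overlap (27.9% of all genes), and the median log2 fold change was -0.67, against 0.0526 over all genes. Pdk4 was 3.70-fold lower in treated than in control hearts (log2 fold change -1.89, SE 0.32, adjusted p = 0.00366). The other values were -0.71 for Pdk1, -0.67 for Pdk2, -0.67 for Pdpr, -0.68 for Pdha1, -0.74 for Mpc1 and -0.50 for Pdp1, with adjusted p from 0.00976 to 0.049. Pdp2 (-0.38, adjusted p = 0.233) and Mpc2 (-0.39, adjusted p = 0.158) were not called. These calls were less stable: leaving out 1 library gave 1 to 8 called genes, namely 1 without treated 3, 3 without control 1 or control 4 and 4 without control 3. Without the 3 libraries rich in atrial markers, treated 1 was the lone treated library, so a loss of calls there can come from lost replication. The log2 fold changes were then -0.66 for Pdk1, -0.54 for Pdk2, -0.61 for Pdpr, -0.67 for Pdha1, -0.49 for Mpc1 and -0.71 for Pdp1. The Pdp1 call, whose groups overlapped, was lost when any of 8 of the 11 libraries was left out.

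Genes were ranked by how closely their log2 CPM followed that of Pdk4 over the 11 libraries, by the root mean square difference of values centred on each gene's mean, among 12626 genes with a mean of at least 1 CPM. Among the closest 5 were Angptl4 (0.451), Bnip3 (0.498), Hist1h1c (0.514) and Acot1 (0.547). They were picked for this pattern, so their levels are given without a test. Angptl4, a secreted inhibitor of lipoprotein lipase, was 49.01 ± 5.86 CPM in control, 6.324 ± 3.92 in obese and 9.176 ± 2.24 in treated hearts. Bnip3, a mitophagy receptor, was 436.3 ± 76.0, 59.56 ± 13.9 and 76.24 ± 10.8 CPM. Hist1h1c, a linker histone gene, was 151.6 ± 24.9, 25.93 ± 4.48 and 35.74 ± 6.33 CPM, and Acot1, an acyl-CoA thioesterase, 111.2 ± 17.7, 16.93 ± 3.37 and 18.2 ± 6.51 CPM. In these 4 the treated mean lay between the obese and control means. Against obese hearts, the treated log2 difference was 0.54 for Angptl4, 0.36 for Bnip3, 0.46 for Hist1h1c and 0.10 for Acot1, beside 1.17 for Pdk4. Acot1 has near-identical copies, so its count is uncertain.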

How the data were processed

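RNA sequencing of 11 mouse heart libraries was analysed from the deposited table of counts per Ensembl gene identifier. Per the submitters' processing notes, cutadapt, HISAT2 and StringTie were used on GRCm38. How reads were counted, with which versions, which annotation and which strand setting, is not given in the sources used, nor whether the whole numbers are counted reads or derived from coverage. Groups came from the labels. Symbols, positions and gene classes came from GENCODE M21 on GRCm38, which held 55227 of the 55487 identifiers. Promoter sequences came from RefSeq.

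Genes were filtered with edgeR's filterByExpr (minimum count 10, minimum total 15) and scaled by TMM. One model of 3 groups was fitted to all 11 libraries by the robust quasi-likelihood F test of edgeR 4.0.16 under R 4.3.3, with Benjamini-Hochberg adjustment over the 23779 genes tested and a threshold of 0.05. The SE is the size of the log2 fold change over the root of F. Levels are CPM on TMM-scaled library sizes, with a prior count of 1 for log2 CPM. The main fit was also run on simulated counts. No group difference in intronic share or atrial markers was built into them, so that run does not bear on those differences. Named genes were the 10 genes, up to 4 genes with the smallest p among those called for the diet in each list, and the 5 genes most like Pdk4. Some genes that this rule would name are not reported here. The 10 genes and the lists were chosen with earlier results of these data known, so the patterns already known are not independent support. Other scalings, filters, covariates (intronic share, atrial marker score, replicate block), DESeq2 1.42.0, limma 3.58.1 voom and leaving out each library were tried.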

Additional observations from a re-analysis of the deposited data

Results flagged for a closer look

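In 4 of the 72 groups of 4 libraries checked among the named genes, 1 library lay far from the other 3, by a gap of more than 0.829 of the group's range. Chance alone flags about 1 in 20 such groups. Pdk4 was 493.7 CPM in obese 3, while the other obese libraries held 224.4 to 251.7 CPM. In control 2, Iba57 was 11.3 CPM against 15.3 to 15.7, and Slc25a20 was 87.2 CPM against 120.4 to 126.3 in the other control libraries. Bnip3 was 549.6 CPM in control 4, against 392.2 to 410.6 CPM.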

How the results depend on the processing

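For obese against control hearts, the 7 called genes became 1 with the intronic share as covariate and 7 to 9 with 1 library left out, and Pdk4 was called under every setting. Between treated and obese hearts the 0 called genes became 1 (Pdk4) with DESeq2 (1.18) and without obese 3. The leave-one-out range was 0.80 to 1.52 for Pdk4 and 0 to 1 for the count. Without the 3 libraries rich in atrial markers, Pdk4 had a log2 fold change of 2.06, with treated 1 as the lone treated library. For treated against control hearts, 7 called genes became 3 with total counts, 3 with the atrial score and 1 with the intronic share. With 1 library left out, 1 to 8 were called. By the longest transcript, the mean Pdk4 share of kinase transcript was 75.5% in control, 42.0% in obese and 55.5% in treated hearts. In obese hearts Pdk2 then had the larger mean share, 46.6%, with overlapping ranges. The order there became Pdha1, Mpc1, Pdk2 and Pdk4, each overlapping with the next. Log2 fold changes that turned sign, 4 of them from called values (Pdhx, Dlat, Slc16a1 and Esrrg with the intronic share) and Rxra with total counts, were as follows. With the intronic share, obese against control gave -0.12 for Pdk3, 0.15 for Mpc2, 0.02 for Pdhx, 0.07 for Dlat, 0.06 for Slc16a1, 0.07 for Esrrg and 0.09 for Ppara, and treated against obese gave -0.15 for Pdp1, -0.14 for Pdpr, -0.07 for Pdha1, -0.17 for Mpc1 and -0.18 for Mpc2. With total counts, Rxra was 0.02 and Ppara 0.26 in obese against control, and Pdp2 0.03 and Mpc2 0.04 in treated against control. With the atrial score, Pdk3 was -0.53 and -0.07 against control, and without the 3 libraries -0.31 and -0.01, where Pdp1 was -0.11 in treated against obese. In treated against obese, upper-quartile scaling gave -0.01 for Pdpr and -0.01 for Mpc1, and protein-coding genes alone -0.02 for Pdpr, -0.01 for Mpc1 and -0.00054 for Mpc2. Leave-one-out ranges crossing 0 were -0.31 to 0.49 for Pdk3 and -0.34 to 0.04 for Ppara in obese against control, and -0.04 to 0.17 for Pdp1, -0.04 to 0.28 for Pdp2, -0.06 to 0.14 for Pdpr, -0.10 to 0.18 for Mpc1 and -0.07 to 0.18 for Mpc2 in treated against obese. The cause of these changes was not tested. Total-count scaling moved the median of all genes from 0.107 to 0.527 and upper-quartile scaling to 0.209 for obese against control, with 9061 genes higher and 960 lower under total counts against 3429 and 3737. Whether replicate numbers pair the libraries was not settled. After group means were removed, same-numbered libraries had correlations of -0.232 to 0.399, and other pairs of -0.408 to 0.192. Obese 1 with treated 1 (0.399) and obese 3 with treated 3 (0.336) lay above all other-numbered pairs. In all, 6 of 11 libraries were closest to one of their own number. With the number as a replicate block, 9 genes were called in obese against control (Pdp2 and Mpc2 added), 0 in treated against obese and 6 in treated against control.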
